A study of Mus musculus with 20 samples.

Results

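The platelet-derived growth factor (PDGF) family of the mouse was followed through sorted stromal cells of gonadal white fat. It comprised 7 genes, taken by symbol out of 54304 in the table: the receptors Pdgfra and Pdgfrb, the receptor-like gene Pdgfrl, and the ligand genes Pdgfa, Pdgfb, Pdgfc and Pdgfd. All 7 were found and exceeded 1 CPM (a read count scaled to the library total) in all 20 libraries, so none was lost to the filter that left 17435 tested genes. RNA sequencing of polyadenylated RNA was done on fibro-inflammatory progenitors (FIPs, CD45-CD31-PDGFRb+LY6C+) and adipogenic precursor cells (APCs, CD45-CD31-PDGFRb+LY6C-CD9-). The groups were FIPs of Mural-Zfp423 transgenic mice, FIPs of control mice, APCs of Mural-Zfp423 transgenic mice and APCs of control mice, with 5 libraries each. All mice were 8-week-old males by the labels, kept at 30 °C and given a diet with 60% of calories from fat for 1 month. RNA of 2 mice was pooled per library and 10 mice were used per genotype, so FIP and APC libraries of a genotype share mice, and which ones do is not stated. The labels name mural cells, the contractile cells of the vessel wall, as the site of the transgene and do not name its promoter. Mural models have been built on regulatory sequence of Pdgfrb.

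PDGFs are secreted dimers that bring together a pair of receptor tyrosine kinases. PDGF-A and PDGF-C act through PDGFRα, PDGF-D through PDGFRβ, and PDGF-B through both. PDGF-A and PDGF-B are processed by furin-type convertases, whereas PDGF-C and PDGF-D leave the cell in a latent form whose CUB domain must be cut away by proteases such as tissue and urokinase plasminogen activator. Pdgfrl encodes a secreted protein that resembles the ligand-binding part of the receptors and has no kinase. In adipose tissue PDGFRα marks fibroblastic and adipogenic progenitors, and its sustained activation in mice drives fibrosis of fat. PDGFRβ marks perivascular cells, and PDGF-B from endothelium recruits them to vessels.

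The 2 ligand genes that were higher in FIPs of both genotypes are the latent ligands, and the 300 bases around their RefSeq starts (250 before and 50 after, GRCm38.p6) are shown for that reason. The Pdgfc window is chr3:81036166-81036465 on the plus strand and the Pdgfd window is chr9:6168236-6168535 on the plus strand. Capitals mark the only match to the motifs searched.
Pdgfc: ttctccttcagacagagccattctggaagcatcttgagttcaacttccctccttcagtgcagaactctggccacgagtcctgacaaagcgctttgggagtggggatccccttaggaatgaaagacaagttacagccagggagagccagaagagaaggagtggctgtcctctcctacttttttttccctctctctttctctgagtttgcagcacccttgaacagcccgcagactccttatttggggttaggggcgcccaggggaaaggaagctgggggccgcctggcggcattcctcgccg
Pdgfd: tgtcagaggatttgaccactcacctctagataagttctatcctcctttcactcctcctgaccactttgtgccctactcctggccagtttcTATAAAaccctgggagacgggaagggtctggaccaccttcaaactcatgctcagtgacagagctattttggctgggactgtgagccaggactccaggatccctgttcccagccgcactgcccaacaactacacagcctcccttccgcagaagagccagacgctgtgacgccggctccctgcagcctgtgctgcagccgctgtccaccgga
Searched on both strands were the TATA letters TATAAA, the GC box GGGCGG and the AP-1 letters TGANTCA, none of which overlapped another in these windows. The Pdgfd window held TATAAA at bases 91 to 96, and the Pdgfc window held none of the motifs. Among 32851 promoter windows of the same length, 13.6% held TATAAA, 35.7% the GC box and 7.81% the AP-1 letters. Windows were at hand for 4 of the 7 members.

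Depth, read from the spacing of the lowest values, was 6590000 to 8510000 counted reads or read pairs per library. That placed between 27 counts (Pdgfa) and 5950 counts (Pdgfrb) behind a member's value in a library. Zfp423, the gene of the transgene, stood at 5.53 ± 0.04 log2 CPM in FIPs labelled transgenic and 5.47 ± 0.12 in control FIPs, and at 4.70 ± 0.27 in APCs labelled transgenic and 4.97 ± 0.17 in control APCs (SD, n = 5 each). The limma adjusted p was 0.933 in FIPs and 0.108 in APCs. No rise was measured, so genotype directions rest on the labels. Markers of interstitial progenitors were higher in FIPs for 13 of 13 genes in both genotypes, and of 12 markers of committed preadipocytes 11 were lower in FIPs labelled transgenic and 10 lower and 1 higher in control FIPs. The interstitial list includes LY6C and CD9 genes, whose proteins the gates used, so these genes are not independent of the sort. The gates required PDGFRβ protein in both populations, so a high Pdgfrb level is what the sort selected for.

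Levels of different genes were compared per kilobase of exon, taken as the union of the exons in GENCODE M21 (GRCm38). The 2 receptor kinases were far above the ligands. Pdgfrb (chromosome 18, 61045150 to 61085061) reached 90.6 ± 8.64 CPM per kilobase in FIPs labelled transgenic, 89.5 ± 4.56 in control FIPs, 127 ± 9.44 in APCs labelled transgenic and 122 ± 7.20 in control APCs (SD, n = 5). Pdgfra (chromosome 5, 75152292 to 75198215) reached 64.6 ± 2.82, 66.3 ± 1.24, 65.6 ± 3.63 and 61.9 ± 4.99 CPM per kilobase in the same order of groups. With the longest annotated transcript in place of the exon union, Pdgfra stood above Pdgfrb in FIPs of both genotypes, so the order of the receptor kinases in FIPs is set by the length chosen. Pdgfd was the highest ligand in all 4 groups, at 23.0 ± 1.21 CPM per kilobase in FIPs labelled transgenic, 22.1 ± 2.14 in control FIPs, 14.8 ± 0.963 in APCs labelled transgenic and 14.1 ± 1.46 in control APCs. Pdgfc was the next ligand in FIPs, at 7.70 ± 1.07 CPM per kilobase in those labelled transgenic and 8.38 ± 0.785 in controls, but the lowest of the 7 genes in APCs, at 1.38 ± 0.429 in those labelled transgenic and 1.89 ± 0.471 in controls. Pdgfrl lay between 7.05 and 9.73 CPM per kilobase on average in every group, and its range overlapped that of Pdgfc in FIPs. The ranges of Pdgfa and Pdgfb overlapped in all 4 groups, as did those of Pdgfa and Pdgfc in APCs and of Pdgfd and Pdgfrl in control APCs. Within each single APC library, however, Pdgfb lay above Pdgfa and Pdgfa above Pdgfc. Pdgfd likewise lay above Pdgfrl within each control APC library. In FIPs of both genotypes the order of Pdgfa and Pdgfb changed from library to library.

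**Figure D1:**
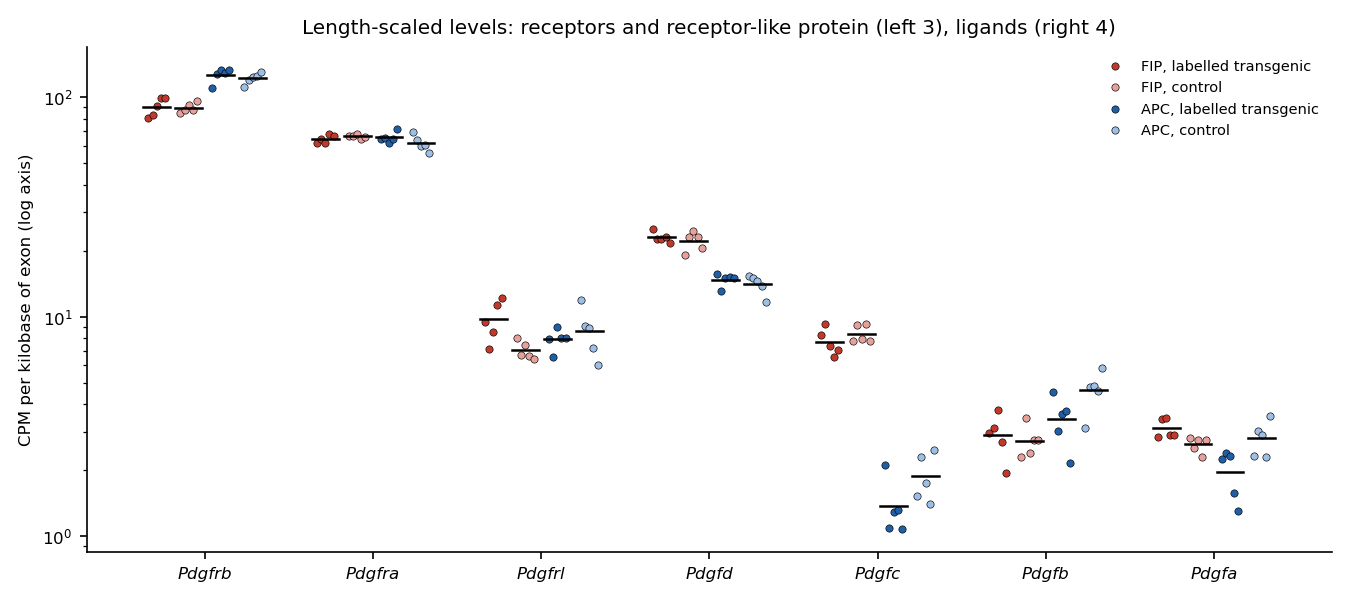
CPM per kilobase of exon (log axis) of each PDGF family gene in each of the 20 libraries, coloured by group; short bars are group means of 5 libraries. Both receptor kinases lie above all ligands, and Pdgfc has the widest gap between FIPs and APCs.

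In mice labelled transgenic, 4 of the 7 genes passed between FIPs and APCs (limma, Benjamini-Hochberg adjusted p under 0.05 over all genes tested), where 41.7% of all tested genes passed. In control mice 4 of 7 passed as well, where 47.5% of tested genes passed. Both shares lie near the background. Groups did not overlap for 4 members in mice labelled transgenic, against 29% of tested genes, and for 3 in controls, against 31.4%. The 2 comparisons use different libraries. Within each, FIP and APC pools share mice, and p-values measure the spread between pools. In these bulk samples a smaller number of expressing cells and less RNA per cell cannot be told apart.

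Among the receptors, Pdgfrb was lower in FIPs of both genotypes. Its values were 8.79, 8.83, 8.96, 9.09 and 9.08 log2 CPM in FIPs labelled transgenic (replicates 1 to 5), against 9.24, 9.45, 9.51, 9.47 and 9.51 in APCs labelled transgenic. In control FIPs they were 8.86, 8.90, 8.98, 8.90 and 9.04, against 9.25, 9.36, 9.41, 9.42 and 9.48 in control APCs. Every FIP library lay below every APC library. The difference was −0.49 (SE 0.06, 95% confidence interval −0.62 to −0.36, adjusted p = 2.04e-06 in limma) in mice labelled transgenic and −0.45 (SE 0.06, interval −0.58 to −0.32, adjusted p = 6.57e-06 in limma) in controls, where it amounts to 1.36-fold. Mural marker transcripts differed in the same direction: their summed level was 502 to 639 CPM in FIPs labelled transgenic against 867 to 1009 CPM in APCs labelled transgenic, and 485 to 522 CPM in control FIPs against 940 to 1251 CPM in control APCs. All 15 mural markers were detected in every APC library and at least 14 in every FIP library. With the mural score of each library in the fit, the Pdgfrb difference was −0.42 in controls and no longer passed (adjusted p = 0.216 in limma). The score itself was 3.74 to 3.86 in control FIPs and 4.72 to 5.26 in control APCs. This fit therefore cannot tell the mural score and cell type apart.

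Pdgfra was the most even member of the family. It ranged from 9.27 to 9.41 log2 CPM in FIPs labelled transgenic, 9.34 to 9.41 in control FIPs, 9.28 to 9.49 in APCs labelled transgenic and 9.13 to 9.44 in control APCs, and the ranges overlapped. The difference between FIPs and APCs was −0.02 (interval −0.12 to 0.08, limma adjusted p = 0.749) in mice labelled transgenic and 0.10 (interval 0.00 to 0.20, limma adjusted p = 0.0875) in controls. These intervals allow a change of at most 1.15-fold in controls. Without replicate 1 of the control APCs, the highest of its group at 9.44, the control difference was 0.14 and passed (limma adjusted p = 0.0106). Of 14 alternatives, 2 called Pdgfra higher in control FIPs and 1 called it lower in FIPs labelled transgenic. Over the alternatives the control difference spanned −0.39 to 0.17 (lowest limma adjusted p = 0.0286). In mice labelled transgenic it spanned −0.34 to 0.02 (lowest limma adjusted p = 0.00238). Because Pdgfrb differed and Pdgfra hardly did, the log2 difference of Pdgfra over Pdgfrb within a library was 0.31 to 0.51 in FIPs labelled transgenic and −0.23 to 0.10 in APCs labelled transgenic. It was 0.32 to 0.53 in control FIPs and −0.35 to 0.19 in control APCs. These values are on the CPM scale, not per length, and serve only to set groups side by side: in both genotypes the ranges of FIPs and APCs did not overlap.

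Pdgfrl (chromosome 8, 40926212 to 40990785) did not pass between FIPs and APCs. Its values were 4.88, 4.48, 4.74, 5.15 and 5.25 log2 CPM in FIPs labelled transgenic and 4.65, 4.39, 4.54, 4.37 and 4.33 in control FIPs. In APCs labelled transgenic they were 4.63, 4.36, 4.81, 4.65 and 4.64, and in control APCs 5.22, 4.83, 4.80, 4.49 and 4.23. The control APCs spread over about the whole range of the other groups. The FIP minus APC difference was 0.28 (interval −0.04 to 0.60, limma adjusted p = 0.151) in mice labelled transgenic and −0.26 (interval −0.58 to 0.06, limma adjusted p = 0.176) in controls. Leaving out replicate 2 of the FIPs labelled transgenic gave 0.39 (limma adjusted p = 0.0485), and leaving out replicate 5 of the control APCs gave −0.38 (limma adjusted p = 0.0386). Of 14 alternatives, 2 called Pdgfrl lower in control FIPs. The control difference spanned −1.27 to −0.19 over the alternatives (lowest limma adjusted p = 0.0186).

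**Figure D2:**
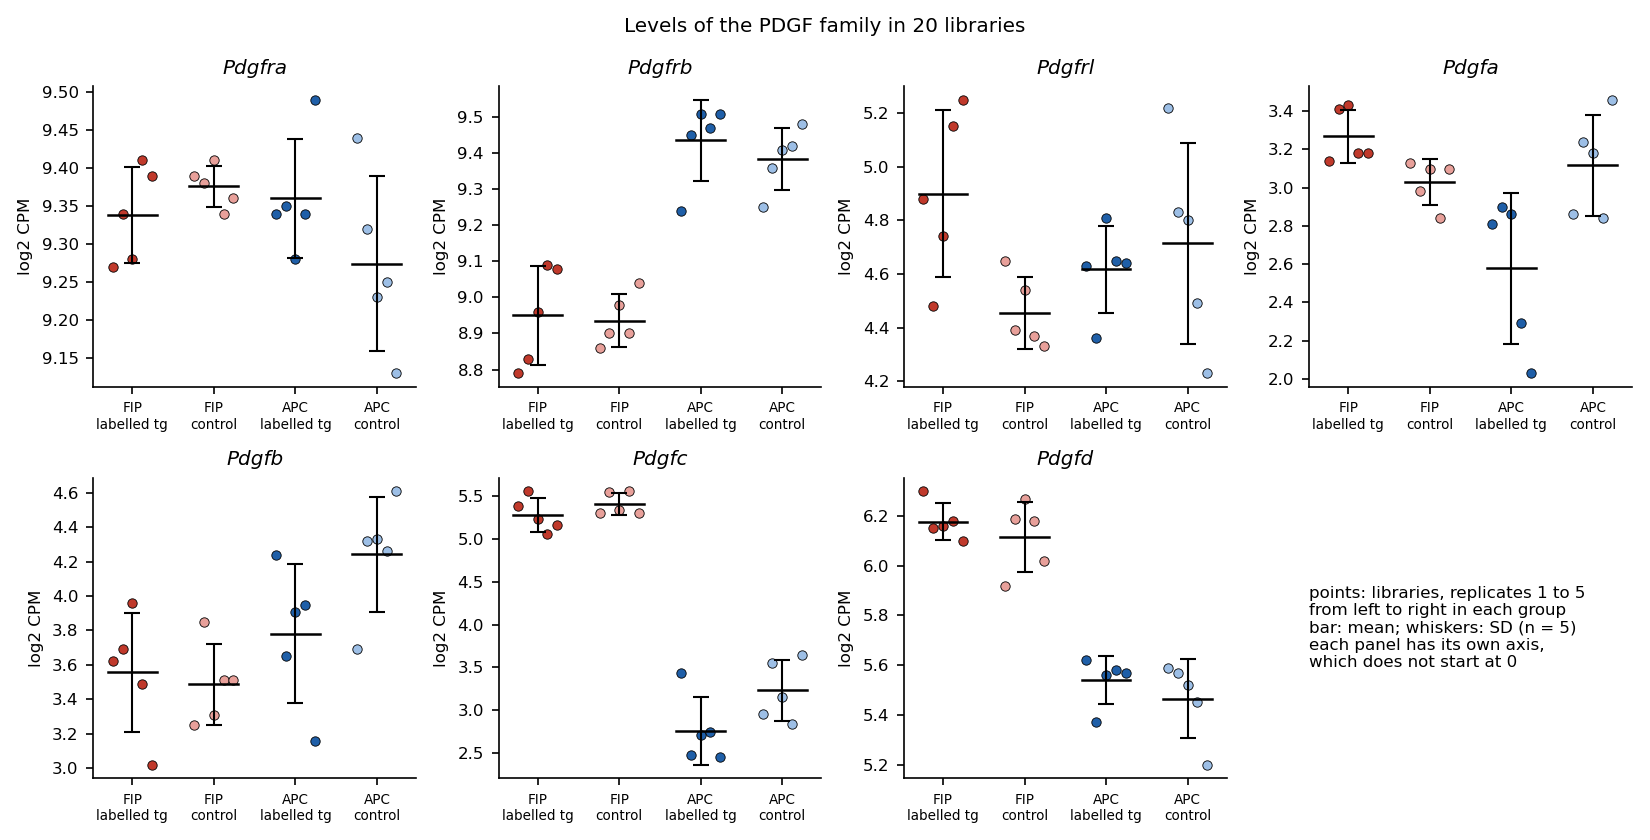
Level of each of the 7 genes in log2 CPM (each panel with its own axis) in FIPs and APCs labelled transgenic and control; points are libraries, bars the mean and whiskers the SD of 5 libraries. Pdgfc and Pdgfd lie higher and Pdgfrb lower in all FIP libraries, while Pdgfra overlaps in all 4 groups.

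Among the ligands, Pdgfc (chromosome 3, 81036416 to 81214040), which signals through PDGFRα, had the widest separation. It stood at 5.39, 5.56, 5.23, 5.06 and 5.17 log2 CPM in FIPs labelled transgenic, against 3.43, 2.47, 2.71, 2.74 and 2.45 in APCs labelled transgenic. In control FIPs it was 5.30, 5.55, 5.34, 5.56 and 5.30, against 2.96, 3.55, 3.15, 2.84 and 3.65 in control APCs. The lowest FIP library was more than 1 log2 unit above the highest APC library. The difference was 2.52 (SE 0.17, interval 2.17 to 2.88, adjusted p = 1.44e-10 in limma), or 5.74-fold, in mice labelled transgenic and 2.18 (SE 0.17, interval 1.83 to 2.53, adjusted p = 1.63e-09 in limma), or 4.53-fold, in controls. By size it ranked 140 and 173 among the 17435 tested genes. It passed under every alternative run, with a difference of at least 2.36 in mice labelled transgenic and 2.06 in controls. 

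Pdgfd (chromosome 9, 6168584 to 6378850), the latent ligand of PDGFRβ, was also higher in FIPs, by less. It stood at 6.30, 6.15, 6.16, 6.18 and 6.10 log2 CPM in FIPs labelled transgenic, against 5.62, 5.37, 5.56, 5.58 and 5.57 in APCs labelled transgenic. In control FIPs it was 5.92, 6.19, 6.27, 6.18 and 6.02, against 5.59, 5.57, 5.52, 5.45 and 5.20 in control APCs. FIP and APC libraries did not overlap in either genotype. The difference was 0.64 (SE 0.07, adjusted p = 4.45e-07 in limma), or 1.56-fold, in mice labelled transgenic and 0.65 (SE 0.07, adjusted p = 3.88e-07 in limma), or 1.57-fold, in controls. With the mural score in the fit the control difference was 0.43 and did not pass (limma adjusted p = 0.265). That score does not overlap between FIPs and APCs, so the fit cannot tell it apart from cell type. FIPs carried more messenger RNA of the PDGFRβ ligand PDGF-D and less of PDGFRβ itself.

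Pdgfb (chromosome 15, 79995874 to 80014977), best known as an endothelial and platelet product, ran the other way in controls. Its values were 3.25, 3.85, 3.31, 3.51 and 3.51 log2 CPM in control FIPs, against 3.69, 4.32, 4.33, 4.26 and 4.61 in control APCs. The groups overlapped in 1 library each, and the difference was −0.76 (SE 0.20, adjusted p = 0.00341 in limma), or 1.69-fold lower in FIPs. In mice labelled transgenic the values were 3.62, 3.69, 3.96, 3.49 and 3.02 in FIPs, against 4.24, 3.65, 3.91, 3.95 and 3.16 in APCs. These groups overlapped, with a difference of −0.23 (interval −0.63 to 0.18, limma adjusted p = 0.38).

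Once group means were subtracted, transcripts of every marker list, those of the sorted cells included, moved with Pdgfb. Over the 20 libraries, which share cell type and genotype in groups of 5, its Pearson r was 0.86 with the endothelial score (the mean log2 CPM of the markers), 0.86 with the erythroid, 0.82 with the mesothelial, 0.79 with the leukocyte and 0.76 with the mural score. After group means were subtracted r was 0.85, 0.76, 0.66, 0.87 and 0.78. For the preadipocyte, platelet and interstitial progenitor scores r was 0.73, 0.51 and −0.50 over the 20 libraries. After group means were subtracted these were 0.68, 0.68 and 0.57. All 15 endothelial markers were detected in every library, although CD31 was gated out, and none was at 0. Their summed level was 1011 to 1265 CPM in FIPs labelled transgenic against 961 to 1216 CPM in APCs labelled transgenic, and 889 to 1127 CPM in control FIPs against 1057 to 1328 CPM in control APCs. In controls 14 of the 15 passed as lower in FIPs and 1 as higher. Among the other lists in controls, 15 of 15 mural, 10 of 11 mesothelial and 7 of 8 erythroid markers passed as lower in FIPs, and 2 of 16 leukocyte markers did. With the endothelial score in the fit the control difference of Pdgfb was 0.01 (limma adjusted p = 0.985), with the erythroid score 0.07, and with the mural score 1.31 (limma adjusted p = 0.0641). Each of these scores was lower in every control FIP library than in every control APC library. The fits therefore cannot tell the scores and cell type apart. Of 11 platelet markers at least 5 were detected in every library and Gp9, Gp1bb, Gp6 and Treml1 were at 0 in all 20. The summed level of the platelet list was 152 to 176 CPM in FIPs labelled transgenic against 64.9 to 71.6 CPM in APCs labelled transgenic, and 187 to 229 CPM in control FIPs against 60.4 to 82.5 CPM in control APCs. In controls 1 of the 5 tested passed as higher in FIPs and 2 as lower. The median FIP minus APC difference of the tested platelet markers was −0.20 in mice labelled transgenic and −0.48 in controls. The sum and the median thus went opposite ways. The part of each cell type in the Pdgfb difference was not tested apart from these fits. With the endothelial score in the fit, the Pdgfc difference was 2.51 in mice labelled transgenic and 2.70 in controls. Pdgfc had an r of −0.36 with the endothelial score over the 20 libraries and 0.67 after group means were subtracted.

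**Figure D3:**
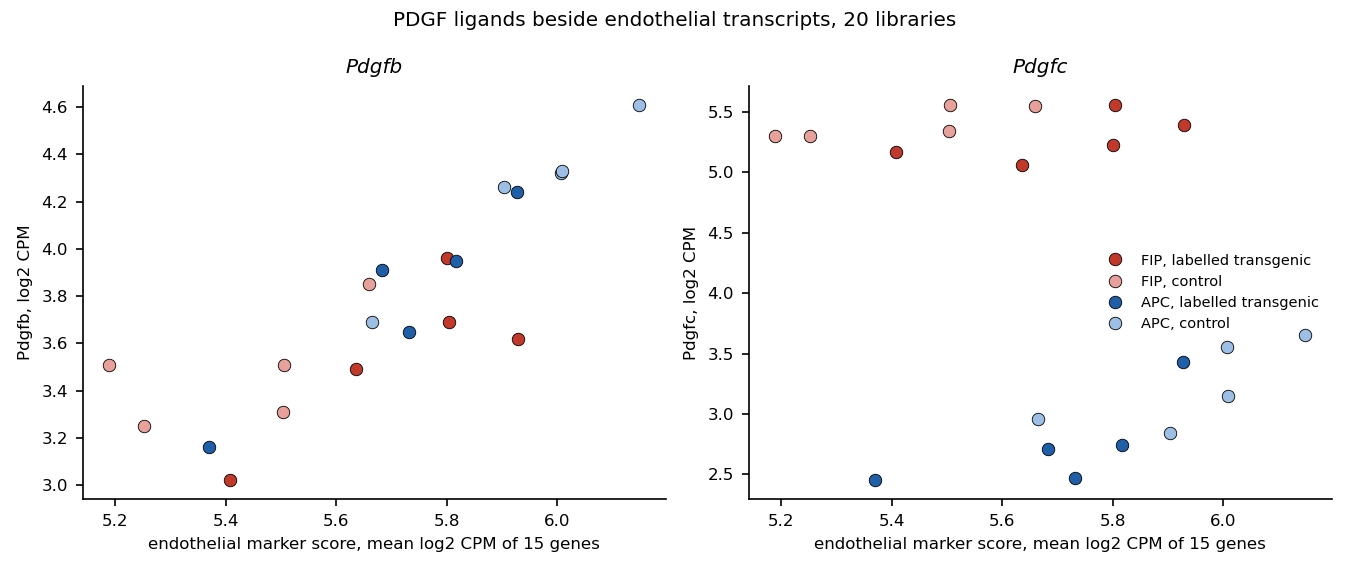
Level of Pdgfb (left) and Pdgfc (right) in log2 CPM against the endothelial marker score, the mean log2 CPM of 15 genes, in each of the 20 libraries. Libraries with a higher score tend to have more Pdgfb. Pdgfc stays above 5 log2 CPM in FIPs and below 4 in APCs at any score. Within groups Pdgfc also rose with the score (r = 0.67 after group means were subtracted).

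Pdgfa (chromosome 5, 138976014 to 138997370), a ligand of PDGFRα, passed between FIPs and APCs in mice labelled transgenic and did not pass in controls; the difference between these contrasts is the interaction given further on. It stood at 3.14, 3.41, 3.43, 3.18 and 3.18 log2 CPM in FIPs labelled transgenic, against 2.81, 2.90, 2.86, 2.29 and 2.03 in APCs labelled transgenic. These groups did not overlap, and the difference was 0.69 (SE 0.16, adjusted p = 0.00129 in limma), or 1.61-fold. In control FIPs it stood at 3.13, 2.98, 3.10, 2.84 and 3.10, against 2.86, 3.24, 3.18, 2.84 and 3.46 in control APCs. Here the groups overlapped, with a difference of −0.09 (interval −0.42 to 0.24, limma adjusted p = 0.686).

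The comparison of genotypes asked whether the family differed in mice that carry the transgene by label. In FIPs limma called 0 of the 7 members, where 0.373% of tested genes were called. Pdgfrl was the 1 member with an unadjusted p under 0.05: it averaged 4.90 ± 0.31 log2 CPM in FIPs labelled transgenic and 4.46 ± 0.13 in control FIPs (SD, n = 5), a difference of 0.44 (interval 0.12 to 0.76, limma adjusted p = 0.253; exact permutation p = 0.0238, two-sided). It passed with the endothelial score in the fit (0.65, limma adjusted p = 0.0366). Pdgfa averaged 3.27 ± 0.14 in FIPs labelled transgenic and 3.03 ± 0.12 in control FIPs, a difference of 0.24 (interval −0.09 to 0.57, limma adjusted p = 0.665). All 5 libraries labelled transgenic were above all 5 controls for Pdgfa, with the smallest exact permutation p that 5 against 5 allows, 0.00794, whereas 2.89% of tested genes had no overlap. The exact test was run for 28 pairs of member and comparison and carries no adjustment. For the receptor kinases the intervals were narrow: −0.14 to 0.06 for Pdgfra and −0.12 to 0.14 for Pdgfrb.

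In APCs limma called 1 of the 7 members, where 8.01% of tested genes were called, 2.1% as higher and 5.91% as lower. No member was without overlap, against 2.92% of tested genes. Pdgfa averaged 2.58 ± 0.39 log2 CPM in APCs labelled transgenic and 3.12 ± 0.26 in control APCs (SD, n = 5). The difference was −0.54 (SE 0.16, interval −0.87 to −0.21, limma adjusted p = 0.0435; exact permutation p = 0.0556, two-sided), or 1.45-fold lower. The groups overlapped: replicates 1, 4 and 5 labelled transgenic, at 2.81, 2.29 and 2.03, lay below all controls, while replicates 2 and 3, at 2.90 and 2.86, lay among the lowest controls. The call was lost in 12 of 20 fits that left out 1 library, with differences of −0.62 to −0.40 and limma adjusted p of 0.0504 to 0.138. These were replicates 2, 4 and 5 of the APCs labelled transgenic, replicates 2, 3 and 5 of the control APCs, replicate 2 of the FIPs labelled transgenic and all 5 control FIPs. With only the APC groups in the fit the adjusted p in limma was 0.181.

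Pdgfc and Pdgfb lay lower too in APCs labelled transgenic, without passing. Pdgfc averaged 2.76 ± 0.40 log2 CPM in APCs labelled transgenic and 3.23 ± 0.36 in control APCs, a difference of −0.47 (interval −0.82 to −0.12, limma adjusted p = 0.0865). Pdgfb averaged 3.78 ± 0.41 and 4.24 ± 0.34 in the same groups, a difference of −0.46 (interval −0.87 to −0.05, limma adjusted p = 0.143). Without replicate 1 of the APCs labelled transgenic, which had the group's highest Pdgfc and Pdgfb, Pdgfc differed by −0.64 and passed (limma adjusted p = 0.0065). Without replicate 1 of the control APCs both passed (−0.54 for Pdgfc, adjusted p = 0.0485; −0.60 for Pdgfb, adjusted p = 0.0408, limma). Marker transcripts fell beside these ligands, and the median difference was negative in every marker list. It was −0.94 for erythroid, −0.79 for leukocyte, −0.74 for mesothelial, −0.24 for mural and −0.22 for endothelial markers. For platelet and preadipocyte markers it was −0.10 and −0.03, against −0.03 over all tested genes. The 8 tested erythroid genes all passed as lower, with a summed level of 469 to 1071 CPM in APCs labelled transgenic against 831 to 1581 CPM in control APCs. Of 16 leukocyte markers 10 passed as lower, with sums of 228 to 388 CPM in APCs labelled transgenic against 368 to 608 CPM in control APCs. Markers of interstitial progenitors, which like Pdgfc are higher in FIPs, passed as lower for 8 of 13 genes (median −0.53), with sums of 438 to 490 CPM in APCs labelled transgenic against 547 to 581 CPM in control APCs; their part in the Pdgfc difference was not tested. With the erythroid score in the fit the differences were −0.25 for Pdgfa, −0.01 for Pdgfc and 0.23 for Pdgfb, and 0 genes of the whole table were called. The erythroid score was 4.33 to 5.53 in APCs labelled transgenic and 5.19 to 6.04 in control APCs. Score and genotype thus largely go together, and this fit cannot tell them apart. Pdgfd (0.07), Pdgfra (0.09), Pdgfrb (0.05) and Pdgfrl (−0.10) did not pass.

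The difference between the genotype contrasts of FIPs and APCs was tested as an interaction. Limma called 0 members and 0% of all tested genes, while 2 members and 2388 of 17435 genes had an unadjusted p under 0.05. The 2 members were Pdgfa, at 0.78 (interval 0.31 to 1.24, limma adjusted p = 0.18), and Pdgfrl, at 0.54 (interval 0.09 to 0.99, limma adjusted p = 0.288). A different response of Pdgfa in FIPs and APCs was therefore not shown at the threshold. For Pdgfd the interaction was −0.01 (interval −0.23 to 0.20) and for Pdgfrb −0.04 (interval −0.22 to 0.15).

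**Figure D4:**
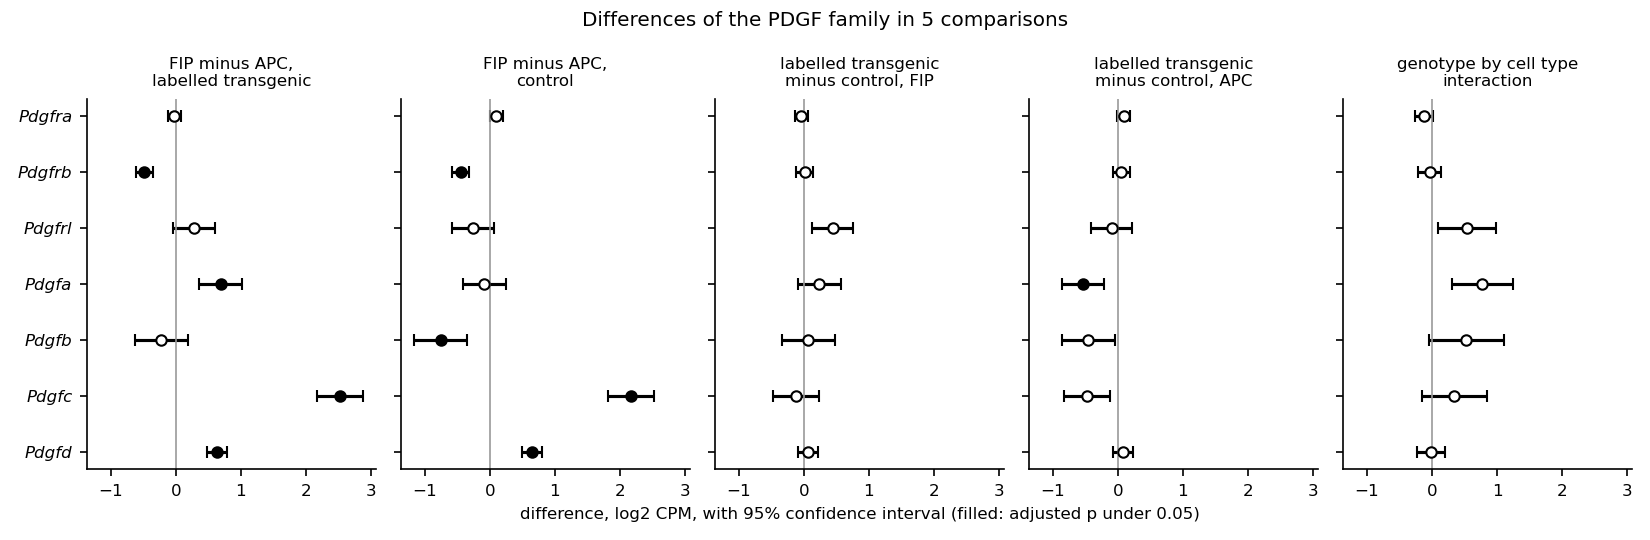
Difference of each gene in log2 CPM with its 95% confidence interval in 5 comparisons; filled points have a limma adjusted p under 0.05 over all tested genes. Pdgfc has the largest differences between FIPs and APCs, and Pdgfa is the filled point between genotypes, in APCs.

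Genes that act on the ligands were read from a list of 15 processing and binding genes, of which 13 were tested. In mice labelled transgenic 3 were higher and 5 lower in FIPs, and in controls 3 were higher and 6 lower, where 22.7% and 19% of all tested genes passed as higher and lower in mice labelled transgenic and 19.6% and 27.9% in controls. The list medians were −0.12 and −0.08, against −0.01 and −0.06 over all tested genes. The convertase gene Pcsk6, whose product cleaves growth factor precursors, rose most: 8.83 ± 0.05 log2 CPM in FIPs labelled transgenic against 7.70 ± 0.23 in APCs labelled transgenic, and 8.95 ± 0.08 in control FIPs against 7.63 ± 0.23 in control APCs (SD, n = 5). The differences were 1.13 (adjusted p = 6.8e-09 in limma) and 1.32 (adjusted p = 6.9e-10 in limma). Pcsk5, a related convertase, was higher by 0.71 and 0.70. Plau, the urokinase that can activate PDGF-D, fell by 0.35 and 0.24 (limma adjusted p = 4.86e-06 and 0.000481), and Pcsk7 fell by 0.18 and 0.14. Plat, the tissue plasminogen activator that cuts PDGF-C, differed by 0.01 (limma adjusted p = 0.866) in mice labelled transgenic and was higher by 0.12 (limma adjusted p = 0.0368) in controls. Nrp1, a coreceptor of several growth factors, fell by 0.13 and 0.15. No member of the list was called between genotypes in either population.

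Receptor-proximal signalling genes were called at about the background share: 7 of 36 were higher and 8 lower in FIPs labelled transgenic, and 9 higher and 8 lower in control FIPs, with medians of −0.01 and −0.02. The Src-family kinase Fyn was higher by 0.56 and 0.72 and the adaptor Grb10 by 0.62 and 0.55 in mice labelled transgenic and controls. The phosphoinositide 3-kinase regulatory subunit Pik3r1 fell by 0.44 and 0.65, the adaptor Nck2 by 0.80 and 0.57, and the transcription factor Stat5a by 0.37 and 0.40. Between genotypes in APCs 2 were lower, the adaptor Grb7 (−1.04, with libraries listed at 0) and the kinase subunit Pik3cb (−0.70), and in FIPs 0 passed.

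The negative regulators held Ptprj, the gene with the largest difference of the pathway lists. Of 21, 4 were higher and 10 lower in FIPs labelled transgenic, and 4 higher and 6 lower in control FIPs, with medians of −0.09 and −0.05. The shares called were 66.7% and 47.6%, against 41.7% and 47.5% of all tested genes. Ptprj, a receptor phosphatase that dephosphorylates PDGFRβ, stood at 6.87 ± 0.05 log2 CPM in FIPs labelled transgenic against 4.91 ± 0.12 in APCs labelled transgenic, and at 7.08 ± 0.08 in control FIPs against 5.29 ± 0.15 in control APCs (SD, n = 5). The differences were 1.96 (adjusted p = 2.15e-15 in limma) and 1.80 (adjusted p = 1.09e-14 in limma). The feedback inhibitor Spry4 fell by 1.30 and 1.26 and its relative Spry1 by 0.79 and 0.68. The ERK phosphatase Dusp6 fell by 0.92 and 0.76 and the receptor phosphatase Ptprk by 0.95 and 1.05. The members moved in both directions although all are inhibitors. In APCs labelled transgenic Ptprj fell by 0.38 (limma adjusted p = 0.00595), and Spry4 (0.19) and Ptpn12 (0.18) were among those higher.

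Of 20 genes of the early growth factor response, 6 were higher and 8 lower in FIPs labelled transgenic and 6 higher and 5 lower in control FIPs, with medians of −0.10 and −0.01. That made 70% and 55% called, against 41.7% and 47.5% of all tested genes. Has2, a hyaluronan synthase that PDGF induces in fibroblasts, was higher by 1.16 and 0.98, Ier3 by 0.52 and 0.70, the nuclear receptor Nr4a1 by 0.50 and 0.49, and the chemokine gene Ccl2 by 0.32 and 0.43. The serum response factor Srf fell by 0.62 and 0.39 and Fosb by 0.26 and 0.12. In APCs labelled transgenic Fosl1 (0.36), Ier3 (0.22), Odc1 (0.19) and Srf (0.19) were higher. Of 14 related receptor kinases and their ligands, 3 were higher and 3 lower in FIPs labelled transgenic, and 3 higher and 5 lower in control FIPs. Here 42.9% and 57.1% were called, against the same shares of all tested genes. The list medians were 0.002 and −0.343, against −0.008 and −0.056 over all tested genes. Vegfa, the main endothelial growth factor, was higher by 0.72 and 0.28, Vegfc fell by 0.58 and 0.53 and the KIT ligand gene Kitl by 0.48 and 0.43. In controls Csf1 (0.13), Kdr (−0.70) and Flt1 (−0.40) passed; in mice labelled transgenic they differed by −0.01, 0.02 and 0.18. In APCs labelled transgenic Csf1r (−0.85), Kdr (−0.51), Kit (−0.51), Vegfb (−0.48) and Vegfa (−0.37) were lower. With each library centred on its median, the 104 pathway genes gave 16 higher and 39 lower in place of 23 and 34 in FIPs labelled transgenic, 27 and 21 in place of 25 and 30 in control FIPs, and 18 and 8 in place of 7 and 8 in APCs labelled transgenic. Over all tested genes the share of calls that were higher was then 43.8% in place of 54.5%, 52.8% in place of 41.3% and 62.6% in place of 26.2% in these 3 comparisons.

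**Figure D5:**
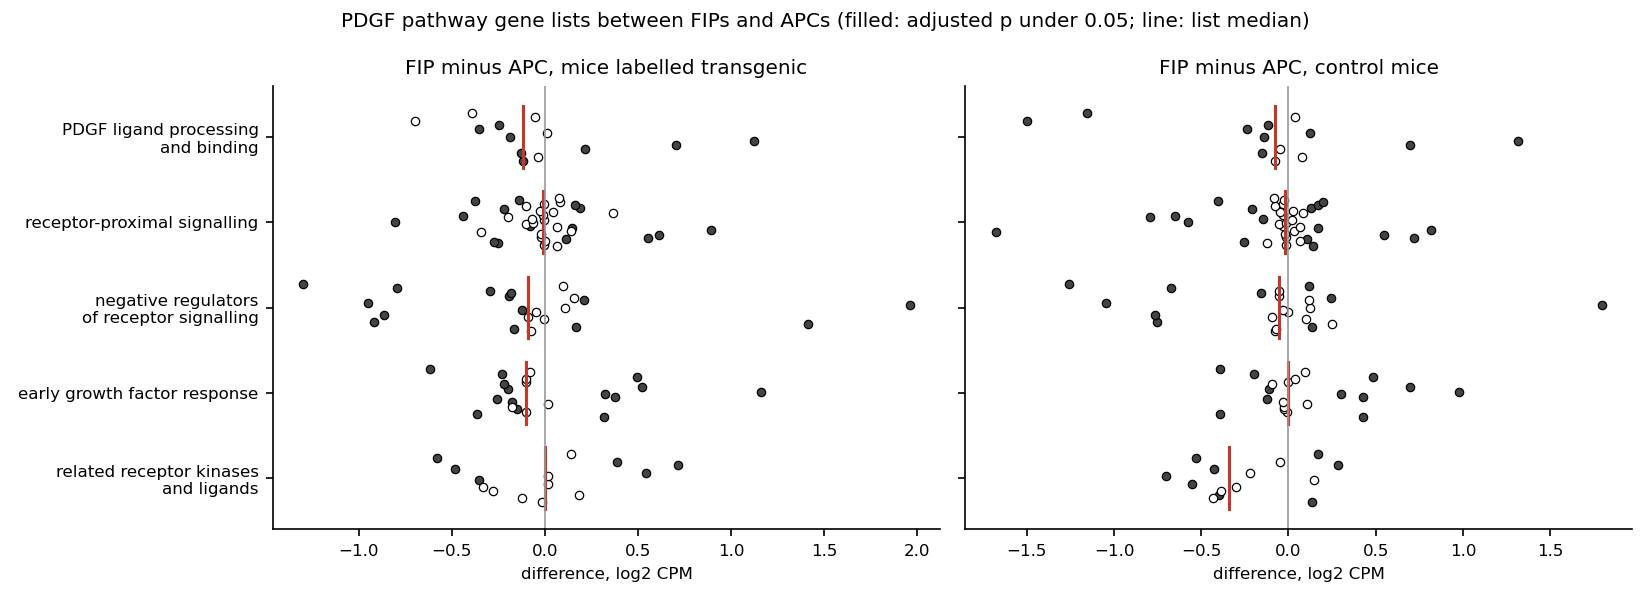
Difference between FIPs and APCs in log2 CPM for each gene of 5 pathway lists, in mice labelled transgenic (left) and controls (right); filled points have a limma adjusted p under 0.05 and lines are list medians. Each list holds genes on both sides of 0, and Ptprj is the point farthest to the right in both panels.

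The genes whose levels ran most like each member were taken over the 20 libraries by Pearson r. They serve as a description only, since libraries share cell type and genotype, and FIP and APC libraries of a genotype share mice. For Pdgfc they were Nov (0.99), a matricellular protein, the neurturin receptor Gfra2 (0.99) and Limch1 (0.99), and after group means were subtracted r was 0.89, 0.81 and 0.75. For Pdgfb they were Ushbp1 (0.96), Arhgef15 (0.94), an endothelial exchange factor, and Zfp366 (0.94), with 0.92, 0.91 and 0.88 after group means were subtracted. Pdgfrb ran most like Dtx4 (0.98), Fblim1 (0.97) and Slf2 (0.97). Pdgfd ran most like the vesicle GTPase Rab8b (0.97), Rassf5 (0.96) and the atypical chemokine receptor Ackr4 (0.96). Pdgfra ran most like Ace (0.90), the angiotensin-converting enzyme, Errfi1 (0.87), a feedback inhibitor of the EGF receptor, and the guidance ligand Slit3 (0.86), with 0.90, 0.86 and 0.93 after group means were subtracted. Pdgfa ran most like Arhgdib (0.89), Bpgm (0.86) and Hps5 (0.85). Pdgfrl ran like Zfp655 (0.79) and the transcription factor Mitf (0.78). Within the family, Pdgfc and Pdgfd correlated at 0.90 over the libraries and at 0.07 once group means were subtracted, so they shared the step between FIPs and APCs and not the variation among libraries of a group.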

How the data were processed

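Polyadenylated RNA of 20 libraries was sequenced. The authors deposited 1 table of log2 CPM to 2 decimals, with values at or under 1 CPM listed as 0. Per the submitters' processing notes, Trim Galore 0.4.1, HISAT2 2.0.1, featureCounts 1.4.6, DESeq2 1.6.3 and the build GRCm38 were used; neither the annotation release nor the strandedness of counting is given in the sources used here, and reads of overlapping antisense genes cannot be told apart. Identifiers matched GENCODE M21 for 54276 of 54304 genes. Genes above 0 in at least 5 libraries (17435) were fitted in limma 3.58.1 (R 4.3.3) with 1 mean per group, which leaves 16 residual degrees of freedom. The prior variance followed mean expression, and calls were made at a Benjamini-Hochberg adjusted p of 0.05. Libraries were taken as independent, although FIP and APC libraries of a genotype share mice. The lowest values were also partly spaced at a finer step, so depth is approximate. Among 40 pairs of libraries of a group 0 were identical, and each pair differed by more than counting noise (chi-square 1.63 to 15.1 per gene). The procedure was tested on simulated data. Single values had exact permutation tests over all 252 splits of 5 against 5.

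The members and lists were chosen with earlier results of these data known. Genes named are the 7 members, Zfp423, up to 6 genes per pathway list with the smallest adjusted p, any list gene needed to describe a count of 5 or fewer, and 3 neighbours per member by r, with a mean of at least 2 log2 CPM and no predicted genes. Some genes that this rule names are not reported here. Markers at 0 were named after their values were seen. Alternatives were 2 other log scales, 2 other filters, 2 other normalizations, robust variance, array weights, fewer groups, a replicate block, pools as a random effect, 3 marker scores as covariates and each library left out. The length of the longest transcript was added after the data were seen.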

Additional observations from a re-analysis of the deposited data

Results flagged for a closer look

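Of 28 groups of 5 libraries examined (7 genes in 4 groups), 2 held a library far from the others; chance alone marks about 1 in 20 such groups. Pdgfrb in replicate 1 of the APCs labelled transgenic stood at 9.24 log2 CPM, below its 4 fellow libraries at 9.45 to 9.51. Pdgfd in replicate 2 of the APCs labelled transgenic stood at 5.37 log2 CPM, below its 4 fellow libraries at 5.56 to 5.62. Both genes still passed between FIPs and APCs without those libraries.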

How the results depend on the processing

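Over 35 member differences, 14 alternatives and 20 fits without 1 library gave 1101 values of the same direction and call. Of values with the same direction, 21 lost a call and 13 gained one. Another 48 turned direction and were counted as such whatever their call. Some of these also lost a call, such as Pdgfb in controls with the endothelial score, or gained one. The calls of Pdgfc in both FIP minus APC comparisons, and of Pdgfa, Pdgfd and Pdgfrb in mice labelled transgenic, held in all of them. The cause of the changes below was not tested. In controls the endothelial, erythroid and mural scores each separated FIPs from APCs without overlap. The mural score did so in mice labelled transgenic too. Fits with those scores cannot tell score and cell type apart.

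Counts of genes called moved as follows. For FIP minus APC in controls (8288) they were 4614 with the endothelial, 4284 with the erythroid and 1352 with the mural score as a covariate, and with the mural score 2 members passed, Pdgfc and Pdgfra (−0.39), so that Pdgfc alone was left of the 4 called. For FIP minus APC in mice labelled transgenic (7275) the mural score gave 4101, and 4 to 6 members were called over the alternatives. For genotype in APCs (1396) they were 2253 with array weights, 2199 after centring on library medians, 89 with the endothelial, 0 with the erythroid and 38 with the mural score, 823 on log2(CPM + 0.1), 812 with no filter and 0 with only the 2 groups compared. Members called there (1) were 2 with array weights and 0 with the endothelial, erythroid or mural score, log2(CPM + 0.1), no filter, only the 2 groups and quantile normalization. For genotype in FIPs (65) they were 271 with array weights, 291, 107 and 256 with the endothelial, erythroid and mural scores and 36 with only the 2 groups; the endothelial score called 1 member in place of 0. For the interaction (0) they were 176 with array weights, 2 with the erythroid and 1 with the mural score, 3 on log2(CPM + 1), 36 with pools as a random effect and 1 after quantile normalization. The interaction could not be fitted with only 2 groups.

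Whether replicate numbers pair FIP and APC libraries was not settled, and they were not treated as pairs because only some same-numbered correlations exceeded 0.1: deviations of same-numbered libraries correlated at 0.0592 to 0.333 in mice labelled transgenic and 0.0364 to 0.269 in controls, and 2 and 3 of 5 correlated best with their own number. A replicate block joined libraries of the same number across genotypes, and so mice of different pools. It called 8216 genes for FIP minus APC in controls and 7251 in mice labelled transgenic. Genotype gave 101 in FIPs and 1057 in APCs, and the interaction 0. The members called stayed at 4, 4, 0, 1 and 0. Same-numbered FIP and APC libraries of a genotype, taken as a random effect (correlation 0.16), gave 8959, 7964, 65, 1436 and 36 genes.

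Differences that turned direction were these. For FIP minus APC in controls, the endothelial, erythroid and mural scores gave 0.21, 0.25 and 1.09 for Pdgfa, 0.0061, 0.068 and 1.31 for Pdgfb and −0.036, −0.071 and −0.39 for Pdgfra, and quantile normalization gave 0.0197 for Pdgfa. In mice labelled transgenic, Pdgfb was 0.087 with the erythroid and 1.12 with the mural score (limma adjusted p = 0.00935), Pdgfrl −0.38 with the mural score and Pdgfra 0.022 after quantile normalization. For the interaction, the endothelial score gave −0.25 for Pdgfb, −0.19 for Pdgfc, 0.016 for Pdgfra and 0.069 for Pdgfrb, the mural score −0.19 for Pdgfb, 0.063 for Pdgfd and 0.0485 for Pdgfra, and Pdgfrb was 0.038 with the erythroid score and 0.031 after quantile normalization, and Pdgfd 0.013 with array weights. For genotype in APCs, the erythroid score gave 0.23 for Pdgfb, −0.0596 for Pdgfra and −0.0505 for Pdgfrb, and the mural score −0.0036 for Pdgfra. For genotype in FIPs, the endothelial and mural scores gave −0.36 and −0.28 for Pdgfb and 0.039 and 0.045 for Pdgfra, and Pdgfrb was −0.008 after centring and −0.013 with the erythroid score.

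Leaving out 1 library gave 7599 to 8413 genes and 4 to 5 members for FIP minus APC in controls, 6682 to 7461 and 4 to 5 in mice labelled transgenic, 9 to 125 and 0 for genotype in FIPs, 181 to 2849 and 0 to 3 for genotype in APCs, and 0 to 331 and 0 for the interaction. The APC genotype count was highest without replicate 1 of either APC group (2849 without that labelled transgenic, 2471 without the control) and under 1396 by more than 1.5 times without replicates 2, 3, 4 or 5 labelled transgenic (268, 559, 470 and 191) or control replicates 3, 4 or 5 (376, 603 and 181). The FIP genotype count was 18, 35, 9 and 125 without replicates 1, 3, 4 and 5 labelled transgenic, 35, 35, 14 and 27 without control replicates 2 to 5, and 101 without control APC replicate 1. The interaction count was 331 without APC replicate 1 labelled transgenic, 70 without control APC replicate 1, 32 without FIP replicate 5 labelled transgenic and at most 3 otherwise. Differences spanned 0 for Pdgfa in controls (−0.16 to 0) and Pdgfra in mice labelled transgenic (−0.042 to 0.0105), for Pdgfd (−0.061 to 0.0545) and Pdgfrb (−0.087 to 0.002) in the interaction, for Pdgfrl between genotypes in APCs (−0.22 to 0.0305), and for Pdgfb (−0.031 to 0.20) and Pdgfrb (−0.021 to 0.054) between genotypes in FIPs. The log2 ratio of Pdgfra to Pdgfrb per length was −0.48, −0.43, −0.95 and −0.98 in FIPs labelled transgenic, control FIPs, APCs labelled transgenic and control APCs; with the longest transcript it was 0.054, 0.11, −0.41 and −0.44. Counts of 27 to 88 per library behind Pdgfa limit its precision.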
